A study of Sus scrofa with 24 samples.

Results

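The dual-specificity MAP kinase phosphatases described here are 9 genes, DUSP1, DUSP2, DUSP4, DUSP5, DUSP6, DUSP7, DUSP8, DUSP10 and DUSP16, followed through 24 RNA-seq libraries of pig bronchial epithelium. They were chosen by symbol: 8 of the 9 matched a pig gene identifier among the 25880 pig genes of the count table, and counts of members below are over these 8. For 7 of the 8 the RefSeq gene of that symbol (Sscrofa11.1) covered at least 0.5 of the feature's span; for DUSP2 it lay wholly inside the feature but covered 0.383 of it. DUSP7 was assigned to a gene without a symbol by its position alone, and its values are given apart. The phosphatases were read as p38/JNK-directed (DUSP1, DUSP8, DUSP10, DUSP16) and ERK-directed (DUSP4, DUSP5, DUSP6), with DUSP2 in neither class.

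The epithelial cells came from the bronchi of wild-type pigs aged 1 month and were cultured at an air-liquid interface. Each of the 6 groups held 4 libraries: SB203580 plus flagellin, flagellin, and PBS, each at 24 h and at 2 h. SB203580, a small-molecule inhibitor of the p38 kinases, was given at 20 µM for 1 h before flagellin; the flagellin and PBS groups received its solvent DMSO for the same 1 h. Flagellin, the protein of the bacterial flagellum sensed through TLR5, was used at 100 ng/ml. No group with SB203580 and no flagellin was analysed here, so SB203580 plus flagellin differed from PBS by both agents. The labels do not say whether the 4 libraries of a group came from separate animals or cultures, so the p-values speak of the variation among these 24 libraries only, part of which may be technical.

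MAP kinases are switched on when a kinase above them adds phosphate to a threonine and a tyrosine of the activation loop. The dual-specificity phosphatases remove both phosphates and so switch the kinase off. DUSP1, DUSP2, DUSP4 and DUSP5 act mainly in the nucleus and are known in mammalian cells as genes that are switched on soon after a stimulus, DUSP6 and DUSP7 act on ERK in the cytoplasm, and DUSP8, DUSP10 and DUSP16 act on the stress kinases p38 and JNK. Several of these genes are themselves targets of the pathways that they shut down, which makes them a feedback layer in inflamed epithelium.

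The genes lie on separate loci, given here as the table's coordinates, whose pig assembly is not named in the sources used here. Of the p38/JNK-directed members, DUSP1 (ENSSSCG00000016991) spans 51458262 to 51463541 of chromosome 16 on the plus strand, and DUSP10 (ENSSSCG00000010831) 10866448 to 10921056 of chromosome 10 on the minus strand. DUSP8 (ENSSSCG00000032911) spans 1008761 to 1016641 of chromosome 2, minus strand. DUSP16 (ENSSSCG00000032097) and DUSP6 (ENSSSCG00000037910) are both on the plus strand of chromosome 5, at 59807071 to 59961837 and at 93303519 to 93309678. DUSP4 (ENSSSCG00000015850) is at 55490468 to 55508455 of chromosome 15 and DUSP5 (ENSSSCG00000040815) at 120906039 to 120921985 of chromosome 14, both plus. DUSP2 (ENSSSCG00000035971) is at 47051596 to 47057791 of chromosome 3, plus, and the gene taken as DUSP7 (ENSSSCG00000011430) at 34197876 to 34206493 of chromosome 13, minus. The table lists each gene by its exons, and these spans run over the first to the last of them.

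Total counts ranged from 26345945 to 36267289 per library. Replicates 1 and 2 stood apart from replicates 3 and 4 in every group. The 8 tested markers of squamous epithelium had a mean log2 CPM (counts scaled to the library's total) of 6.39 to 8.79 in the 12 libraries of replicates 1 and 2, and of 4.93 to 5.73 in the 12 libraries of replicates 3 and 4. The basal cell factor TP63 was at 13.1 to 50.2 TPM (a level scaled by gene length and library) and the ciliated cell factor FOXJ1 at 1.7 to 21.3 TPM. The secretory product SCGB1A1 was at 0 in 2 of 24 libraries and at a median of 2.13 TPM. The 10 secretory markers, SCGB1A1 among them, summed to 1750 to 10000 TPM. Of the leukocyte markers, CD3E was at 0 in all 24 libraries and PTPRC at 0 in 18, but others were present, and the 13 markers summed to 19.8 to 88.9 TPM.

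By level per length, 3 of the phosphatases were abundant. Over the 24 libraries the median level was 127 TPM for DUSP1, 124 TPM for DUSP6 and 122 TPM for DUSP7. DUSP4 followed at 56.1 TPM, DUSP5 at 49.7, DUSP16 at 32.5, DUSP8 at 22.5 and DUSP10 at 15.3 TPM. DUSP2 was near the floor, at a median of 0.171 TPM and 1 to 42 counts, with 2 libraries at or under 3 counts. All 9 passed the filter on low counts, together with 14172 genes in all.

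The order of the levels changed with time at its head. DUSP1 ranked first in each of the 3 groups at 2 h and below both DUSP6 and DUSP7 in each of the 3 groups at 24 h. In flagellin at 24 h DUSP1 averaged 119 ± 13.7 TPM (SD, n = 4) and DUSP6 139 ± 43.1 TPM, and their libraries overlapped. In flagellin at 2 h DUSP1 averaged 187 ± 24.9 TPM and DUSP6 137 ± 22.2 TPM, with no overlap. In SB203580 plus flagellin and in PBS at 2 h the libraries of DUSP1 and DUSP6 overlapped. DUSP6 and DUSP7 overlapped each other in all 6 groups, DUSP4 and DUSP5 did so as well, and DUSP10 lay above DUSP2 with no overlap in all 6.

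The sets of replicates also differed in several of the phosphatases. DUSP4, a nuclear phosphatase of ERK, was at 114 to 218 CPM in replicates 1 and 2 and at 31.3 to 109 CPM in replicates 3 and 4, with no overlap and a ratio of 3.65. DUSP5, which binds ERK in the nucleus, had a ratio of 2.2 and DUSP6 one of 1.69, but DUSP7, by position, one of 0.987. Of the p38/JNK-directed members DUSP8 had a ratio of 1.74, DUSP16 of 1.22, DUSP10 of 1.2 and DUSP1 of 1.14. DUSP2 had a ratio of 3.41, at low counts. The squamous markers were higher in the same libraries. The 6 basal markers found summed to 687 to 1350 TPM in replicates 1 and 2. In replicates 3 and 4 they summed to 1520 to 2260 TPM, though their mean log2 CPM overlapped between the sets. Leukocyte markers had a mean log2 CPM of 0.22 to 0.59 in replicates 1 and 2. In replicates 3 and 4 it was -0.18 to 0.2, while their summed TPM overlapped. The part of these markers in the levels of the phosphatases was not tested. In bulk samples fewer cells of a type and less RNA per cell cannot be told apart.

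**Figure D1:**
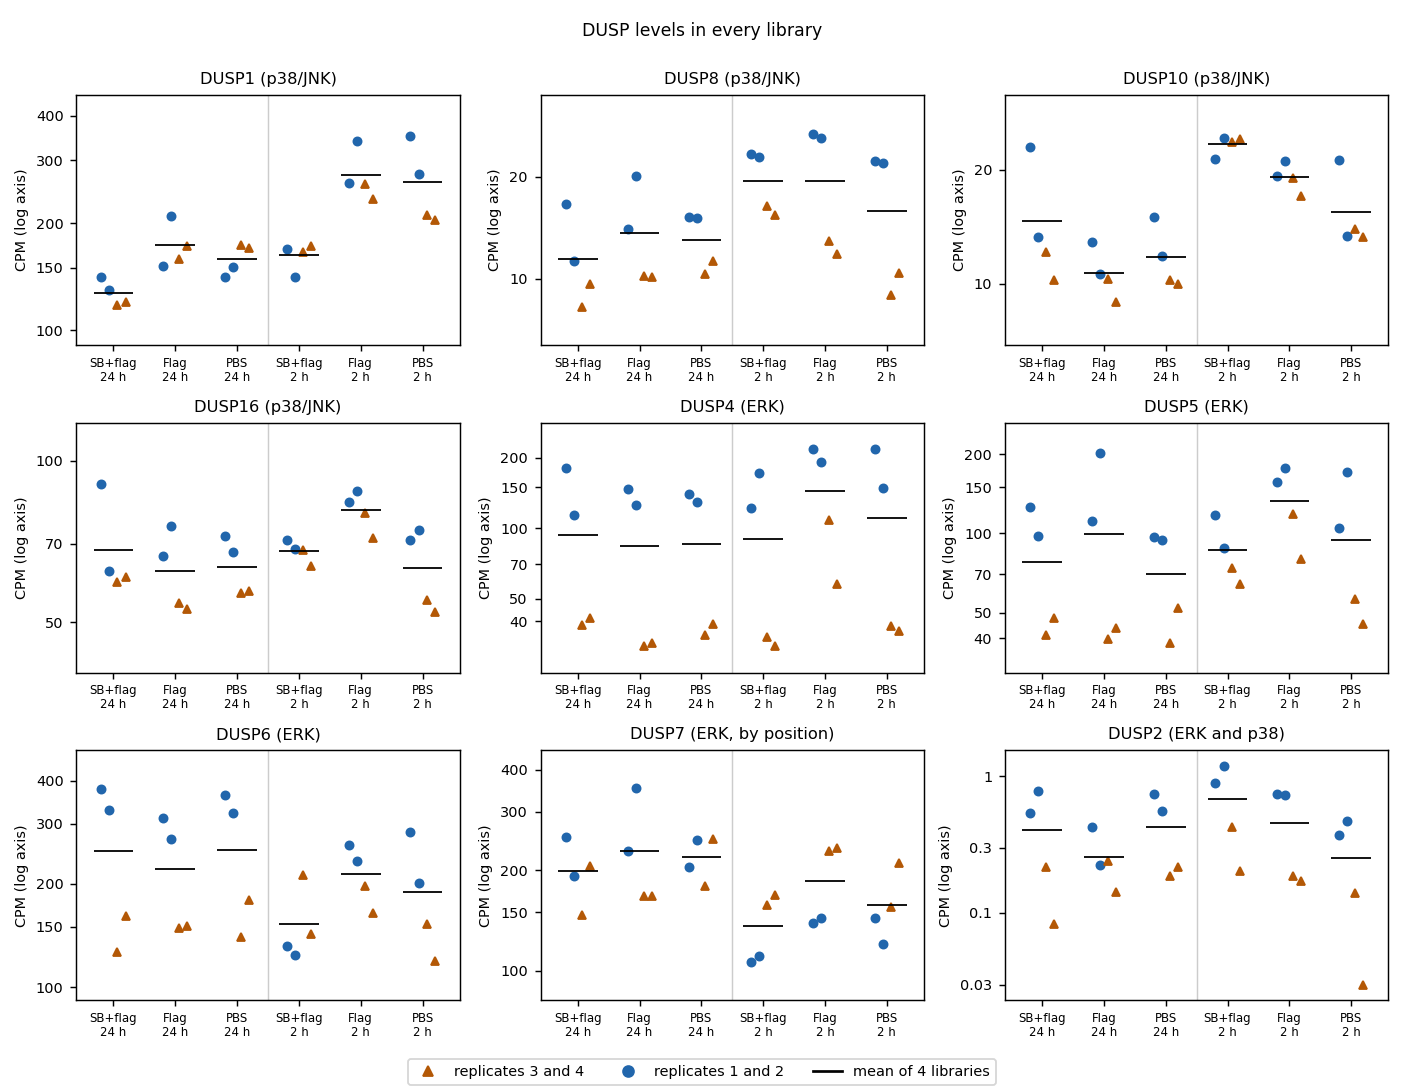
CPM of each phosphatase (log axis, 1 panel per gene) in every library of the 6 groups; triangles are replicates 3 and 4, circles replicates 1 and 2, and lines the means of 4. DUSP1 lies lower in all 3 groups at 24 h than in the same treatment at 2 h, and DUSP4 separates the sets of replicates in all 6 groups.

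The change with time asked how the phosphatases stood a day after the start of treatment, compared with 2 h. DUSP1, the nuclear phosphatase of p38 and JNK, fell at 24 h in PBS and in flagellin, and DUSP10, another phosphatase of p38 and JNK, fell in flagellin. A gene was called where the adjusted p of edgeR's quasi-likelihood test over all 14172 genes was under 0.05. By this rule 1 of 8 members was called in PBS, where 10.2% of all genes were, 2 of 8 in flagellin, where 7.9% were, and 0 of 8 in SB203580 plus flagellin, where 6.88% were. In SB203580 plus flagellin 3 of 8 members had an unadjusted p under 0.05, as had 20.3% of all genes. DESeq2 called 1 member there, DUSP10, where it called 10.5% of all genes.

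DUSP1 in PBS was at 141, 151, 174 and 170 CPM at 24 h, against 352, 274, 211 and 204 CPM at 2 h. Every library at 24 h lay below every library at 2 h, and the log2 fold change was -0.71 (SE 0.154, adjusted p = 0.00644, edgeR). In flagellin DUSP1 was at 152, 210, 159 and 173 CPM at 24 h, against 260, 340, 257 and 233 CPM at 2 h. These groups did not overlap either, and DUSP1 fell by 0.65 on the log2 scale (SE 0.154, adjusted p = 0.0123). In SB203580 plus flagellin DUSP1 was at 141, 130, 118 and 120 CPM at 24 h, against 169, 141, 166 and 173 CPM at 2 h. Lower in 4 of 4 pairs of the same replicate number, it was not called, at -0.35 on the log2 scale (SE 0.154, edgeR adjusted p = 0.193). In a fit of the 2 compared groups alone DUSP1 missed the threshold in PBS (adjusted p = 0.0636) and in flagellin (adjusted p = 0.0731), and in flagellin also without replicate 2 at 2 h (adjusted p = 0.054). Members whose groups did not overlap numbered 1 in PBS, 2 in flagellin and 1 in SB203580 plus flagellin, where 17.2%, 14.7% and 11.7% of all genes did not overlap.

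DUSP10 in flagellin was at 12.9, 10.6, 10.3 and 8.94 CPM at 24 h, against 19.2, 21.1, 19.0 and 17.0 CPM at 2 h. The groups did not overlap, and the log2 fold change was -0.84 (SE 0.207, adjusted p = 0.0157); without replicate 4 at 24 h it was -0.76 (adjusted p = 0.0512). In SB203580 plus flagellin DUSP10 was at 22.9, 13.3, 12.1 and 10.2 CPM at 24 h, against 21.3, 24.2, 23.7 and 24.1 CPM at 2 h. Replicate 1 at 24 h lay among the libraries at 2 h, and the log2 fold change of -0.67 missed the threshold (adjusted p = 0.0521). Without that library it was -0.97 and was called (adjusted p = 0.0029).

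Single markers of other cell types also moved with time. Without a block 6.88% of all genes were called in SB203580 plus flagellin, 7.9% in flagellin and 10.2% in PBS. At these shares 1 call in a short list says little about a cell type. No tested basal, ciliated or secretory cell marker was called in that fit. Without a block, 1 of 7 tested leukocyte markers rose in SB203580 plus flagellin, 1 in flagellin and 2 in PBS, and none fell. CD68, a lysosomal protein of macrophages, rose in all 3 treatments and averaged 26.4 ± 1.45 CPM at 24 h and 8.18 ± 3.29 CPM at 2 h in SB203580 plus flagellin (SD, n = 4 each). It averaged 20.6 ± 3.63 CPM at 24 h and 7.84 ± 2.51 CPM at 2 h in flagellin, and 18.0 ± 4.2 CPM at 24 h and 6.96 ± 2.27 CPM at 2 h in PBS. The other was CD79A, of B cells, in PBS. CSF1R, of the same list, averaged lower at 24 h in all 3 treatments, at group means of at most 0.906 CPM. In SB203580 plus flagellin it was at 0.111 ± 0.143 CPM at 24 h and 0.62 ± 0.76 CPM at 2 h. An edgeR fit with the replicate number as a block called it lower there (-2.22, adjusted p = 0.0438), where 17.1% of all genes were called. The same fit called CD68 and SPI1 higher in all 3 treatments and CD79A higher in PBS. It called the basal markers NGFR and PDPN lower in all 3 treatments and TP63 lower in PBS. The secretory marker WFDC2 was called higher in PBS. COL1A1 and MYH11, of fibroblasts and smooth muscle, and KDR and PECAM1, of endothelium, were called higher in all 3 treatments. Of all genes the block fit called 17.1% in SB203580 plus flagellin, 18.8% in flagellin and 22.5% in PBS. The summed level of the 13 leukocyte markers was 66.8 to 88.9 TPM at 24 h and 19.8 to 59.0 TPM at 2 h in SB203580 plus flagellin. In flagellin it was 48.4 to 61 TPM at 24 h and 19.9 to 43.8 TPM at 2 h, and in PBS 47.8 to 60.5 TPM at 24 h and 20.5 to 56.3 TPM at 2 h. Of 8 tested fibroblast and smooth muscle markers MYH11 rose in all 3 treatments, to group means of at most 1.0 CPM. Of 3 tested endothelial markers PECAM1 rose in SB203580 plus flagellin and in flagellin, and of 8 tested squamous markers IVL rose in SB203580 plus flagellin. The part of these cell types in the changes of the phosphatases was not tested.

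The labels state no pairing of the libraries, so pairs here are only libraries of the same replicate number. A fit with that number as a block called more members. In flagellin it called 5 of 8, all lower at 24 h, where 18.8% of all genes were called and 9.26% were called lower. They were DUSP1, DUSP10, DUSP8 (log2 fold change -0.47, adjusted p = 0.0441), DUSP16 (-0.39, adjusted p = 0.00938) and DUSP4 (-1.0, adjusted p = 0.00217). All 4 of the p38/JNK-directed phosphatases were thus lower at 24 h in flagellin in that fit, at a median log2 fold change of -0.56. The 3 ERK-directed ones were lower as well, at a median of -0.65, though only DUSP4 of them was called. In SB203580 plus flagellin it called 2 of 8, where 17.1% of all genes were called: DUSP10 (-0.74, adjusted p = 0.00264) and DUSP8 (-0.78, adjusted p = 0.00247). In PBS it called DUSP1 alone, 1 of 8, where 22.5% of all genes were called. When edgeR was instead given the set (replicates 1 and 2, or 3 and 4) as a term, it called 2 of 8 in SB203580 plus flagellin, 6 of 8 in flagellin and 1 of 8 in PBS, where 27.1%, 28.9% and 33.2% of all genes were called.

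DUSP8, a phosphatase of JNK and p38, was lower at 24 h in 4 of 4 pairs in SB203580 plus flagellin. It was at 16.6, 11.3, 8.27 and 9.65 CPM at 24 h, against 23.3, 22.8, 16.4 and 15.4 CPM at 2 h. Replicates 3 and 4 were low at both times, so that the groups overlapped by replicate 1 at 24 h. DUSP16, which acts mainly on JNK, was at 66.4, 75.6, 54.3 and 52.9 CPM at 24 h in flagellin, against 83.6, 87.7, 80.0 and 71.8 CPM at 2 h. It was lower in 4 of 4 pairs there, while in PBS its log2 fold change was 0.01 (SE 0.147).

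**Figure D2:**
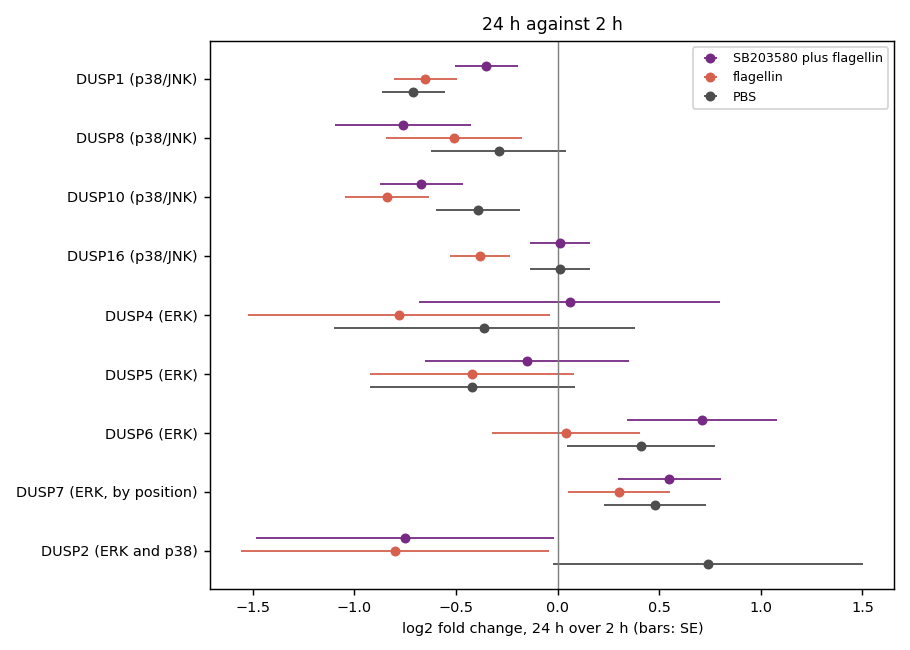
Log2 fold change of 24 h over 2 h for each phosphatase in SB203580 plus flagellin, flagellin and PBS, from the fit without a block; points are estimates and bars the SE. DUSP1, DUSP8 and DUSP10 lie left of 0 in all 3 treatments, and DUSP6 and DUSP7 lie right of 0.

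The ERK-directed phosphatases gave no call with time in the fit without a block. DUSP6, the cytoplasmic phosphatase of ERK, had log2 fold changes of 0.71 (SE 0.367, adjusted p = 0.293) in SB203580 plus flagellin, 0.04 in flagellin and 0.41 in PBS. In SB203580 plus flagellin it was at 378, 329, 127 and 161 CPM at 24 h, against 132, 124, 212 and 143 CPM at 2 h. Replicates 1 and 2 were high at 24 h, and replicate 3 lay lower at 24 h than at 2 h. DUSP7, by position, had log2 fold changes of 0.55 (adjusted p = 0.218), 0.30 and 0.48 in SB203580 plus flagellin, flagellin and PBS. None was called without a block or with it. The fit with the set term called DUSP7 higher at 24 h in SB203580 plus flagellin (0.57, adjusted p = 0.0127) and in PBS (0.51, adjusted p = 0.0216).

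The change with time was compared between the sets of replicates by a fit with a term for each group and set, chosen after the data were seen. DUSP6 in SB203580 plus flagellin had a log2 fold change of -0.30 in replicates 3 and 4 and 1.47 in replicates 1 and 2, a difference of -1.77 (SE 0.286, adjusted p = 0.00217). DUSP1 in PBS had -0.27 in replicates 3 and 4 and -1.10 in replicates 1 and 2, a difference of 0.83 (SE 0.218, adjusted p = 0.0262). DUSP7 in flagellin had -0.47 in replicates 3 and 4 and 1.04 in replicates 1 and 2, a difference of -1.51 (adjusted p = 0.00665). Of the 8 members, 1 was called in PBS, 0 in flagellin and 1 in SB203580 plus flagellin, where 9.36%, 11.8% and 9.84% of all genes were called. In flagellin DUSP5 was the nearest of them to a call, at -1.25 in replicates 3 and 4 and -0.08 in replicates 1 and 2 (adjusted p = 0.0685).

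**Figure D3:**
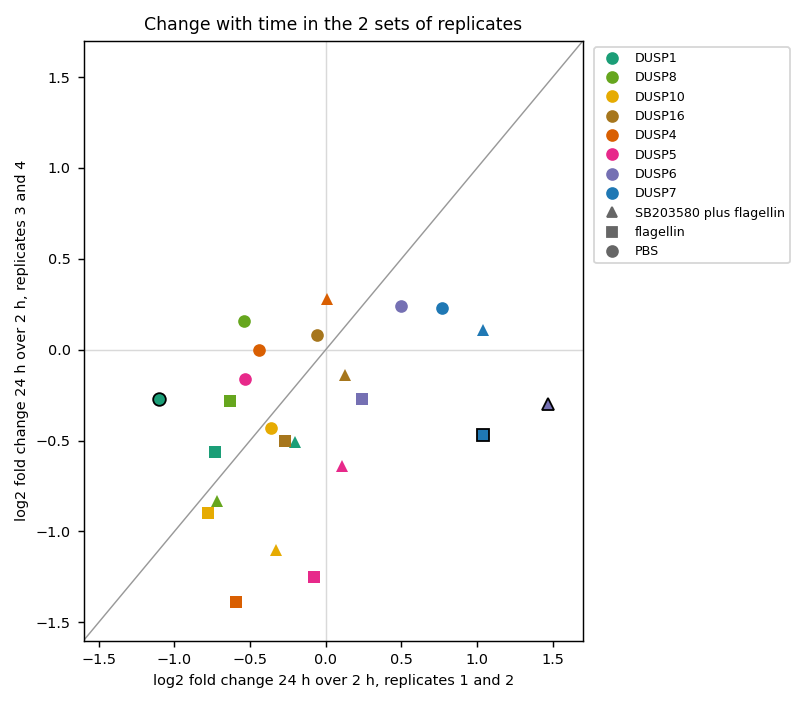
Log2 fold change of 24 h over 2 h in replicates 3 and 4 (vertical axis) and in replicates 1 and 2 (horizontal axis) for 8 phosphatases, without DUSP2; symbols mark the treatments, the diagonal is equality, and black outlines mark a difference between the sets that was called. DUSP6 in SB203580 plus flagellin lies at 1.47 and -0.30, far below the diagonal.

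SB203580 plus flagellin against flagellin asked what the p38 inhibitor changed in cells that met flagellin. DUSP1 was lower with the inhibitor in 4 of 4 pairs at both times, but was not called by edgeR without a block. At 2 h it was at 169, 141, 166 and 173 CPM in SB203580 plus flagellin, against 260, 340, 257 and 233 CPM in flagellin. No library with the inhibitor reached one without it. The log2 fold change was -0.74 (SE 0.154), with an unadjusted p of 9.6e-05 and an adjusted p of 0.212, or 0.0949 with the replicate block. DESeq2 called it (adjusted p = 0.0086), where it called 0.0917% of all genes, as did the edgeR fit with the set term (adjusted p = 0.02), where 0.374% were called. Without a block 0 of 8 members and 0.00706% of all genes were called. An unadjusted p under 0.05 was found for 1 of 8 members and 2.27% of all genes without a block. With the replicate block it was found for 4 of 8 members and 4.71% of all genes, and 0 members were called.

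At 24 h DUSP1 was at 141, 130, 118 and 120 CPM in SB203580 plus flagellin, against 152, 210, 159 and 173 CPM in flagellin. The groups did not overlap, and the log2 fold change was -0.45 (SE 0.154, adjusted p = 1.00). No member was called, as was no gene of the 14172 by edgeR, and DESeq2 called 0 of 8. By edgeR 2 of 8 members and 2.86% of all genes had an unadjusted p under 0.05. The difference between the changes at 24 h and at 2 h was 0.30 (SE 0.217, adjusted p = 1.00), and 0 of 8 members were called for it, where 0% of all genes were. Without a block 0 of 8 had an unadjusted p under 0.05, and DESeq2 called 0. With the replicate block 2 of 8 had an unadjusted p under 0.05, as had 2.58% of all genes, and 0 were called.

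At 2 h the members went in different directions under the inhibitor. DUSP10 was at 21.3, 24.2, 23.7 and 24.1 CPM in SB203580 plus flagellin, against 19.2, 21.1, 19.0 and 17.0 CPM in flagellin, higher in 4 of 4 pairs and narrowly without overlap (log2 fold change 0.29, adjusted p = 1.00). DUSP16 was at 71.0, 68.4, 68.3 and 63.5 CPM in SB203580 plus flagellin, against 83.6, 87.7, 80.0 and 71.8 CPM in flagellin, lower in 4 of 4 pairs and without overlap (-0.25, adjusted p = 1.00). With DUSP1 these made 3 of 8 members whose groups did not overlap, where 2.57% of all genes did not. At 24 h DUSP1 was the 1 such member, where the share was 1.43%.

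DUSP4 and DUSP5 were also lower in 4 of 4 pairs at 2 h, with wide errors in the fit without a block. DUSP4 was at 122, 173, 34.4 and 31.3 CPM in SB203580 plus flagellin, against 218, 193, 109 and 57.6 CPM in flagellin (log2 fold change -0.68, SE 0.744, adjusted p = 1.00). Its sets of replicates lay further apart than its treatments. With the replicate block DUSP4 differed by -0.91 (SE 0.202, edgeR adjusted p = 0.139) and with the set term by -0.93 (adjusted p = 0.0617), neither called. Replicates 3 and 4 alone called it (-1.34, adjusted p = 0.0312), where 0.667% of all genes were called. Replicates 1 and 2 alone did not (-0.49). DUSP5 differed by -0.63 on the log2 scale without a block (SE 0.504, adjusted p = 1.00) and by -0.58 with it (SE 0.246, adjusted p = 0.99). DUSP6 was at 132, 124, 212 and 143 CPM in SB203580 plus flagellin, against 260, 234, 197 and 164 CPM in flagellin. The inhibitor group was lower in replicates 1, 2 and 4 and higher in replicate 3, and its log2 fold change was -0.03 in replicates 3 and 4 and -0.95 in replicates 1 and 2 (adjusted p of the difference = 1.00).

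**Figure D4:**
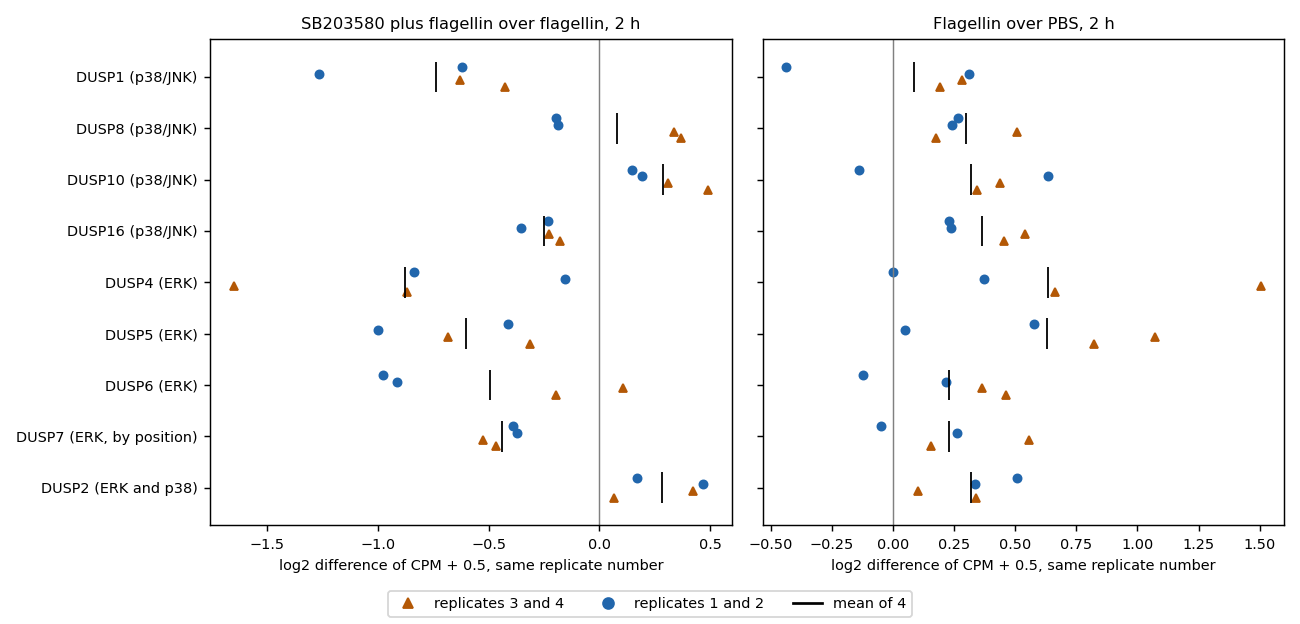
Log2 difference of CPM + 0.5 between libraries of the same replicate number at 2 h, for SB203580 plus flagellin over flagellin (left) and flagellin over PBS (right); triangles are replicates 3 and 4, circles replicates 1 and 2, and lines the mean of 4. On the left all 4 points of DUSP1, DUSP16, DUSP4, DUSP5 and DUSP7 lie below 0 and all 4 of DUSP10 and DUSP2 above it.

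Flagellin against PBS asked which phosphatases the epithelium raised on contact with the bacterial protein. No member was called at 2 h, where 0.325% of all genes were. Of the 8 members 1 had an unadjusted p under 0.05 without a block, as had 5.09% of all genes. DUSP16 was that member, at 83.6, 87.7, 80.0 and 71.8 CPM in flagellin, against 71.2, 74.3, 54.9 and 52.3 CPM in PBS. It was higher in 4 of 4 pairs, though replicate 4 of flagellin lay among the PBS libraries, and the log2 fold change was 0.36 (SE 0.147, adjusted p = 0.785). The fit with the set term called it (0.37, adjusted p = 0.034), where 2.24% of all genes were called. DUSP1 had a log2 fold change of 0.07 (SE 0.153) and was higher in 3 of 4 pairs. DESeq2 called 0 of 8 members. With the replicate block 5 of 8 had an unadjusted p under 0.05, as had 9.6% of all genes, and 0 were called.

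DUSP4 at 2 h was at 218, 193, 109 and 57.6 CPM in flagellin, against 218, 149, 38.1 and 36.2 CPM in PBS. The log2 fold change was 1.16 in replicates 3 and 4 and 0.16 in replicates 1 and 2, a difference of 1.00 (unadjusted p = 0.0167, adjusted p = 1.00). DUSP5 and DUSP8 were higher in 4 of 4 pairs, with log2 fold changes of 0.50 (SE 0.504) and 0.29 (SE 0.332). At 24 h the log2 fold changes of the 8 members lay between -0.71 (DUSP2) and 0.50 (DUSP5), 0 of 8 were called, where 0% of all genes were, and 0 of 8 had an unadjusted p under 0.05 by edgeR or a call by DESeq2. The difference between the changes by flagellin at 24 h and at 2 h gave 0 calls of 8 without a block, where 0.0423% of all genes were called. In that fit 0 of 8 had an unadjusted p under 0.05, and DESeq2 called 0. With the replicate block 4 of 8 had an unadjusted p under 0.05, as had 4.46% of all genes, and 0 were called.

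SB203580 plus flagellin against PBS used the same libraries as the comparisons above. At 2 h DUSP1 was at 169, 141, 166 and 173 CPM in SB203580 plus flagellin, against 352, 274, 211 and 204 CPM in PBS. The groups did not overlap; the log2 fold change was -0.68 (SE 0.154, adjusted p = 0.104), and -0.66 with the replicate block, which called it (adjusted p = 0.0439), as did the fit without replicate 4 of PBS (adjusted p = 0.0492). With the block this was 1 of 8 members where 0.804% of all genes were called. DUSP10 was at 21.3, 24.2, 23.7 and 24.1 CPM in SB203580 plus flagellin, against 21.2, 13.4, 13.9 and 13.3 CPM in PBS (log2 fold change 0.60, SE 0.206, adjusted p = 0.597). With the replicate block the adjusted p was 0.0527, and the fit with the set term called it (0.61, adjusted p = 0.0483). That fit called 3 of 8 members, DUSP1, DUSP2 and DUSP10, where 1.98% of all genes were called. The lowest DUSP10 value with the inhibitor was just above replicate 1 of PBS. DUSP1 and DUSP10 were 2 of 8 members without overlap, where 4.25% of all genes had none. Without a block 0 of 8 members and 0.183% of all genes were called. An unadjusted p under 0.05 was found for 2 of 8 members and 4.75% of all genes without a block, and for 4 of 8 and 9.43% with it. DESeq2 called 1 member, DUSP1 (adjusted p = 0.00962), where it called 0.543% of all genes. At 24 h 0 of 8 members and 0.00706% of all genes were called without a block. In that fit 0 of 8 had an unadjusted p under 0.05, and DESeq2 called 0. With the replicate block 1 of 8 had an unadjusted p under 0.05, as had 8.92% of all genes, and 0 were called.

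DUSP2, a nuclear phosphatase of ERK and p38 known from leukocytes, was at 0.893, 1.19, 0.421 and 0.202 CPM in SB203580 plus flagellin at 2 h, against 0.372, 0.469, 0.14 and 0.0299 CPM in PBS. It was higher in 4 of 4 pairs and differed by 1.41 on the log2 scale (SE 0.758), which edgeR did not call without a block (adjusted p = 1.00) or with it (adjusted p = 0.0686). The fit with the set term called it, at 1.5 (SE 0.381, adjusted p = 0.0453), and DESeq2 did not. At this depth the level of DUSP2 rests on few counts, and the lowest PBS library had 1.

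The classes were set side by side by their median log2 fold change, without a test. For SB203580 plus flagellin against flagellin at 2 h the median was -0.12 over the 4 p38/JNK-directed members and -0.63 over the 3 ERK-directed ones, where the median of all tested genes was 0.012. For 24 h against 2 h in SB203580 plus flagellin the medians were -0.51 and 0.06. In flagellin they were -0.58 and -0.42, and in PBS -0.34 and -0.36. With DUSP7 added, the ERK-directed medians with time were 0.31, -0.19 and 0.03.

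Summed per length, the p38/JNK-directed members were at 156 ± 7.37, 181 ± 10.2 and 185 ± 16.1 TPM (SD, n = 4 each) at 24 h in SB203580 plus flagellin, flagellin and PBS. At 2 h the same sums were 201 ± 12.7, 276 ± 34.3 and 252 ± 56.9 TPM. DUSP1 made up most of each. Their share of both classes was 40.7% ± 10.6, 45.5% ± 11.0 and 43.6% ± 12.3 at 24 h, and 50.9% ± 5.02, 49.7% ± 5.33 and 53.6% ± 7.03 at 2 h, in the same order of treatments. The spread at 24 h followed the sets: in PBS at 24 h the shares were 32.1% and 34.3% in replicates 1 and 2, and 57.1% and 51.0% in replicates 3 and 4.

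**Figure D5:**
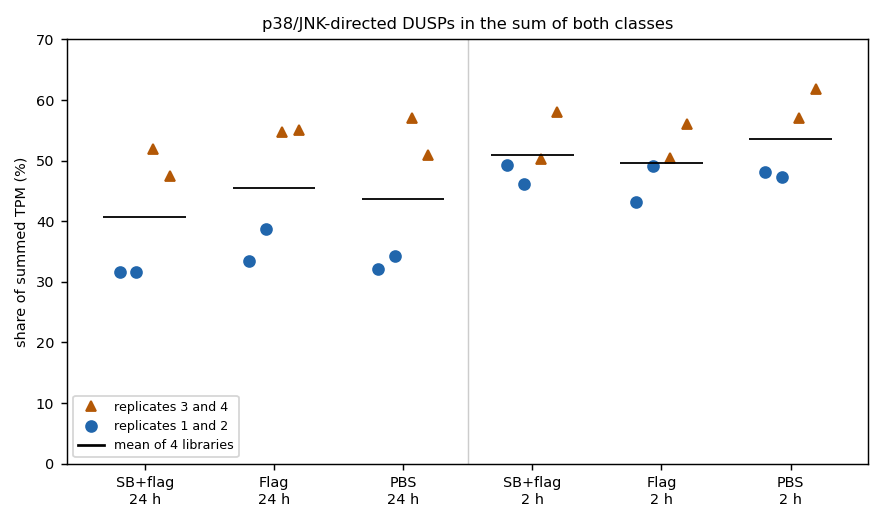
Share of the p38/JNK-directed phosphatases in the summed TPM of both classes (without DUSP2 and DUSP7), per library and group; triangles are replicates 3 and 4, circles replicates 1 and 2, and lines the means of 4. At 24 h the circles lie between 31.6% and 38.8% and the triangles between 47.5% and 57.1%.

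Likeness was described by the correlation over the 24 libraries after each set's mean was subtracted, across 11855 genes with a symbol; these libraries share their treatments and times. DUSP1 was most like OVOL1, an epithelial transcription factor (r = 0.838), and AREG, a ligand of the EGF receptor (r = 0.831). For DUSP5, HBEGF, another EGF receptor ligand, was among the genes most like it (r = 0.896). DUSP10 was most like EDN1, which encodes endothelin (r = 0.886), and SOD2, the mitochondrial superoxide dismutase (r = 0.882). Among the members DUSP16 and DUSP5 had r = 0.785, DUSP16 and DUSP4 r = 0.708, and DUSP6 and DUSP7 r = 0.665. DUSP1 and DUSP6 had r = -0.04.

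Other genes of the MAP kinase pathway came from lists. Of 15 tested ERK output genes none was called for flagellin against PBS at 2 h without a block. With the block, where 1.07% of all genes were called, 2 rose and 0 fell: IER3, an early response gene, at 389 ± 44.8 CPM in flagellin and 162 ± 30.4 CPM in PBS (log2 fold change 1.20, adjusted p = 0.0378), and SPRED2, an inhibitor of the ERK cascade, at 77.4 ± 5.08 and 58.9 ± 3.56 CPM in those groups (0.40, adjusted p = 0.0378). Of 15 MAP kinase kinase kinases only MAP3K8, which lies above ERK, rose in that fit, at 93.3 ± 52.9 CPM in flagellin and 18.7 ± 14.7 CPM in PBS (2.45, adjusted p = 1.63e-06). It was not called without the block (adjusted p = 0.294). With time it was the 1 called of these kinases without a block, and fell in flagellin (-2.77, adjusted p = 0.016).

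With time and without a block, 6.88% of all genes were called in SB203580 plus flagellin, 7.9% in flagellin and 10.2% in PBS. Of the 15 ERK output genes 1 rose and 1 fell in SB203580 plus flagellin, 1 rose and 2 fell in flagellin, and 1 rose and 1 fell in PBS. SPRY1, an inhibitor of receptor tyrosine kinase signalling, rose in all 3 treatments, with log2 fold changes of 0.73 in SB203580 plus flagellin, 0.83 in flagellin and 0.67 in PBS. IER3 fell in SB203580 plus flagellin (-1.18, adjusted p = 0.0355) and in flagellin (-1.73, adjusted p = 0.00316). SPRED2 fell in flagellin (-0.35, adjusted p = 0.0163), and the ephrin receptor gene EPHA4 fell in PBS (-0.96, adjusted p = 0.00435). Of 12 tested MAP kinases 0 were called in SB203580 plus flagellin, 1 in flagellin and 3 in PBS. MAPK3, which encodes ERK1, rose in flagellin and in PBS, and the JNK genes MAPK8 and MAPK9 fell in PBS. MAPK8 was at 24.4 ± 6.61 CPM at 24 h and 37.9 ± 4.89 CPM at 2 h in PBS (-0.64, adjusted p = 0.0425). Of 11 tested other dual-specificity phosphatases 1, STYX, a catalytically inactive relative, fell with time in PBS (-0.44, adjusted p = 0.0403), a share below that of all genes. Of 6 other MAP kinase phosphatases 1, PPM1B, rose with time in SB203580 plus flagellin (0.53, adjusted p = 0.0189). MAP2K6, a kinase that activates p38, was at 11.5 ± 6.33 CPM in SB203580 plus flagellin and 2.59 ± 2.35 CPM in PBS at 24 h, and was called higher with the block (2.41, adjusted p = 0.0349), where 0.0635% of all genes were called, but not without it (adjusted p = 1.00).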

How the data were processed

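Gene-level read counts, whole numbers and not normalized, were deposited by the authors in 1 table; the submitters' processing notes name Subread 1.4.6-p1, featureCounts and STAR 2.4.0a. They list the mouse build GRCm38, although the deposited features are pig genes. Which pig assembly was used, and whether counting used strand, is not given in the sources used here. DUSP16, which overlaps another gene over a short exon end, and DUSP6, whose first exon overlaps an unnamed antisense gene, may share reads with them. Gene lengths in the deposited table gave TPM. Identifiers were matched to symbols (14857 of 25880 genes matched), and DUSP7 from RefSeq positions (Sscrofa11.1), by at least 0.5 of the feature's span. Features other than pig genes held 0.00131% of the counts and were left out.

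Counts were scaled by TMM (0.836 to 1.07), filtered with filterByExpr and tested in edgeR 4.0.16 (R 4.3.3) with 1 term per group over all 24 libraries, 18 residual degrees of freedom, two-sided, and Benjamini-Hochberg adjustment over 14172 genes. CPM uses TMM-adjusted library sizes, and log2 levels add 0.5. Each SE was derived from the log2 fold change and its F statistic. Alternatives were DESeq2 1.42.0, other scaling, no filter, a replicate block, a centred term for the set within each time, single sets, the compared groups alone, and leaving out libraries. The deviations of same-numbered libraries from their group means correlated at over 0.1 in 36 of 36 pairs (0.228 to 0.851). These deviations keep the difference between the sets of replicates, so the correlations cannot show that the numbers pair the samples. In 21 of 36 a library was closest to its own number. The script was tested on simulated data.

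The members and lists were chosen with earlier results of these data known. The text names all 9 members, genes of the other lists among those passing the test without a block, with it or with the set term, and for likeness the genes with the highest Pearson r, of which 1 is not reported here. No sequences are shown.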

Additional observations from a re-analysis of the deposited data

Results flagged for a closer look

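Among 54 groups of 4 libraries tested for a value far from the others, 2 were marked; chance marks about 1 in 20. DUSP10 in PBS at 2 h was at 21.2 CPM in replicate 1, against 13.3 to 13.9 CPM in the other 3 libraries. DUSP16 in SB203580 plus flagellin at 24 h was at 90.6 CPM in replicate 1, where the other 3 libraries lay between 59.4 and 62.3 CPM.

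The log2 fold change of 24 h over 2 h differed between replicates 3 and 4 and replicates 1 and 2 for 3 genes, by a test of the difference itself in edgeR. The differences in log2 fold change were 0.83 for DUSP1 in PBS, -1.77 for DUSP6 in SB203580 plus flagellin and -1.51 for DUSP7, named by position, in flagellin. The squamous markers, the summed basal markers and the mean log2 CPM of the leukocyte markers also differed between these sets. Their part was not tested.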

How the results depend on the processing

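The counts of members called depended most on how the sets of replicates were treated. With the replicate block they were 1 for SB203580 plus flagellin against PBS at 2 h, and with time 5 in flagellin and 2 in SB203580 plus flagellin; the block changed no other count. The set term gave 1 for flagellin against PBS, 1 for SB203580 plus flagellin against flagellin and 3 for SB203580 plus flagellin against PBS at 2 h, and with time 6 in flagellin and 2 in SB203580 plus flagellin. Replicates 3 and 4 alone, where 7 members were tested, gave 3, 2 and 2 for those 3 comparisons at 2 h. Of all genes 1.42%, 0.667% and 1.31% were called. With time they gave 4 in SB203580 plus flagellin, 5 in flagellin and 2 in PBS, where 24.7%, 27.7% and 25.0% were called. Replicates 1 and 2 alone gave 1 with time in SB203580 plus flagellin and 1 in flagellin, where 10.9% of all genes were called in each. The compared groups alone gave 1 of 7 tested with time in flagellin and 0 of 8 in PBS. Of all genes 2.22% and 3.93% were called. DESeq2 gave 1 for SB203580 plus flagellin against flagellin and 1 against PBS at 2 h, and 1 with time in SB203580 plus flagellin. Another alternative, chosen after seeing the data, left out 5 libraries set apart as low in secretory markers. Its count with time was 1 in SB203580 plus flagellin and 3 in flagellin, where DUSP16 was added. Of all genes 5.78% and 10.9% were called. Not all of the 5 were low among the 24 libraries. For the inhibitor group at 24 h it dropped replicate 1, whose secretory markers summed to 6020 TPM, and replicate 2, at 4550 TPM. Both lay above every library of replicates 3 and 4 (2430 to 4070 TPM). RLE scaling and no count filter changed no count.

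Leaving out 1 library gave 0 to 1 for SB203580 plus flagellin against PBS at 2 h (1 without replicate 4 of PBS), 1 to 2 with time in flagellin (1 without replicate 4 at 24 h or replicate 2 at 2 h) and 0 to 1 with time in SB203580 plus flagellin (1 without replicate 1 at 24 h). In these fits 0.154%, 5.93%, 5.06% and 5.71% of all genes were called, in the order named. The other counts did not change.

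The difference of the class medians, p38/JNK-directed minus ERK-directed, was less stable. Without those 5 libraries it was 0.40 for SB203580 plus flagellin against flagellin and 0.56 against PBS at 24 h, and with time 0.04 in SB203580 plus flagellin and -0.30 in PBS. That alternative leaves SB203580 plus flagellin at 24 h with replicates 3 and 4 alone. With DUSP7 added it was -0.04 for SB203580 plus flagellin against flagellin at 24 h and -0.37 with time in PBS. Leaving out 1 library gave -0.42 to 0.12 for SB203580 plus flagellin against flagellin, -0.30 to 0.07 against PBS and -0.24 to 0.40 for flagellin against PBS, all at 24 h, and with time -1.12 to -0.22 in SB203580 plus flagellin, -0.35 to 0.27 in flagellin and -0.35 to 0.21 in PBS. With time in flagellin it was also 0.09 with the block, 0.28 without the 5 libraries, 0.72 in replicates 3 and 4 and -0.59 in replicates 1 and 2, against -0.16. The causes were not tested. Depth limits DUSP2 alone among the members.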
